A study of Mus musculus with 18 samples.

Results

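The Trem2 knockout was compared with the wild type as 1 difference per gene, averaged over the 3 brain regions sampled after a stroke. All 18 libraries of the study entered this mean, 9 per genotype, and it was repeated on 17 libraries without 1 wild-type core library that stood apart. The mice were male, 8 to 10 weeks old and of C57Bl6 background, and all of them, wild type and knockout alike, had received 50 mg/kg of the dye Rose Bengal and light from a 525 nm laser at 125 mW over a cortical circle 3 mm wide. This photothrombotic injury closes cortical vessels. At 7 days the brains were stained with TTC, which leaves dead tissue pale, and divided into infarct core, peri-infarct tissue and the contralateral side. There were 6 groups of 3 libraries: wild type contralateral, knockout contralateral, wild type peri-infarct, knockout peri-infarct, wild type core and knockout core. These groups hold no uninjured mice, so the contralateral side is tissue of an injured brain. The labels call the mutants Trem2 knockouts and do not say how the allele was made, whether the wild types were littermates, or whether a replicate number is 1 mouse. The p-values thus reflect the spread among these libraries alone, and that spread may be technical.

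Trem2 is a receptor for lipids and lipoproteins on microglia and macrophages that signals through the adaptor Tyrobp (DAP12) and the kinase Syk. In injured or degenerating brain it is known for letting microglia take up debris and switch to the disease-associated state, in which genes of lysosomes and of lipid handling rise. A mean over regions favours genes that differ between the genotypes in all 3 tissues, whether or not they respond to the lesion.

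Wild-type core library 3 had the largest total, 18713770 estimated counts, and the remaining 17 had 16993978 to 17691801. That library held 16216 detected genes against 16720 to 17109 in the others, and 15.5% of its counts fell on just 10 genes, where the top 10 held 3.27% to 5.38% elsewhere. Its markers of excitatory cortical neurons summed to 68.8 CPM (counts scaled to library depth by TMM, which compare libraries and not genes), against 2709 to 5419 in the other 5 core libraries. It also raised the common dispersion of the fit, the shared measure of spread between libraries, from 0.0197 to 0.0894. Choroid plexus markers, which mark tissue of the ventricles, summed to over 200 CPM in 4 libraries, at 280 in wild-type contralateral 2, 2484 in knockout contralateral 2, and 632 and 2327 in knockout peri-infarct 1 and 3, and to between 19.1 and 93.1 in the other 14.

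With 18 libraries, 35 of 15329 tested genes (0.228%) passed edgeR's quasi-likelihood test of the mean difference at an adjusted p under 0.05. Of these, 14 (0.0913%) were higher and 21 (0.137%) lower in the knockout. On log2(TPM + 1) the split with 18 libraries was 34 higher and 17 lower by limma. With 17 libraries, 1151 of 15432 (7.46%) passed, 349 higher (2.26%) and 802 lower (5.2%). All 35 genes of the larger set of libraries were among these 1151, where they made up 3.04%. Most differences were small: of the 1151, 49 were higher and 36 lower by at least 1 on the log2 scale. In 1111 of them the sign was the same in the 3 regions, which selection on the mean over these regions favours. The share among all tested genes was not counted. The median over all tested genes was -0.01 with 18 libraries and 0.00 with 17. Both counts hang on single libraries. The count of 35 became 13, 16, 15 and 16 without wild-type contralateral 3, knockout contralateral 3, knockout core 1 and knockout core 3. It became 17 to 23 without wild-type contralateral 1 or 2, knockout contralateral 2, wild-type peri-infarct 1, any knockout peri-infarct library or knockout core 2. Without wild-type core 1 it was 70. The count of 1151 became 1781 without wild-type contralateral 1, 524 without wild-type contralateral 3, 740 without knockout contralateral 3 and 718 without knockout peri-infarct 3. Both counts fell without the 4 libraries high in choroid plexus markers. That fit left knockout peri-infarct 2 alone in its group, so its counts are not given. Why calls were lost was not tested. If each replicate number of a genotype is counted as 1 sample, 3 against 3 averages over the regions gave 1 call with 18 libraries, and over the contralateral and peri-infarct tissue 4. When the core was left out altogether, 151 genes passed, 26 higher and 125 lower.

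Whether the difference was unequal between regions was tested for each gene in the same fit. No gene passed with 18 or with 17 libraries by edgeR, although 178 (1.16%) and 1384 (8.97%) had an unadjusted p under 0.05. DESeq2 called 0 and 50 genes, limma-voom 0 and 0, and limma on log2(TPM + 1) called 1 and 3. Values by region are therefore given below as descriptions of what went into a mean.

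The targeted gene was measured first. Trem2 stood at 27.9, 20.5 and 28 CPM in the wild type and 0.691, 0.902 and 0.337 in the knockout contralaterally, in the peri-infarct tissue at 130.2, 91.4 and 125 and 2.47, 3.19 and 3.93, and in the core at 184, 215 and 920.1 and 5.59, 8.24 and 5.23. Every knockout library lay below every wild-type library of its region, and the receptor's messenger was still counted at a low level in the knockout. The mean log2 difference was -5.52 ± 0.35 (SE) with 18 libraries (edgeR adjusted p = 3.79e-06) and -5.14 ± 0.15 with 17 (adjusted p = 4.99e-11). By exact 2-sided permutation of genotype within regions the difference in mean log2 CPM was -5.33 (p = 0.00025, the smallest that 8000 arrangements can give). If 1 replicate number of a genotype were 1 mouse, 20 arrangements would remain and p would be 0.1, the smallest possible.

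Next to Trem2 in p-value stood Nnt, the mitochondrial transhydrogenase that makes NADPH from NADH, a gene known to carry a deletion in the C57BL/6J substrain. Wild-type libraries 1 to 3 held 40.3, 40.5 and 30.1 CPM of Nnt contralaterally, 47.3, 46.1 and 38.7 in the peri-infarct tissue and 49.8, 54.7 and 66.2 in the core. The knockout libraries held 20.4, 20.9 and 22, then 24.3, 25.3 and 25.8, then 32.9, 35.5 and 28.5. No knockout library reached the lowest wild-type library of its region, and the log2 differences with 17 libraries were -0.79, -0.82 and -0.67 in contralateral, peri-infarct and core tissue. Nnt fell by 0.81 ± 0.08 on the log2 scale with 18 libraries (adjusted p = 0.000454) and by 0.76 ± 0.07 with 17. Of the listed genes reported to differ between C57BL/6 substrains, 7 were tested. With 17 libraries Nnt and Cyfip2, an actin regulator, were lower (Cyfip2 -0.26 ± 0.05, background 5.2%). Crb1, a polarity gene, was higher (background 2.26%), and with 18 libraries only Nnt passed. Unlike Nnt, Cyfip2 had log2 differences of -0.14, -0.12 and -0.51 in contralateral, peri-infarct and core tissue with 17 libraries. Over all 18 libraries, wild-type core library 3 included, its genotypes overlapped in each region. In the core its mean was 521 CPM (SD 393) in the wild type and 517 (SD 6.73) in the knockout. Among the 20 genes on either side of Nnt in gene order, Tmem267, Hmgcs1, Hspb3 and BC147527 were among those that passed with 17 libraries, none with 18, and Nnt's next neighbours Paip1 (-0.04 ± 0.04) and Fgf10 (-0.12 ± 0.17) did not. These neighbours were looked at after their values were seen.

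**Figure D1:**
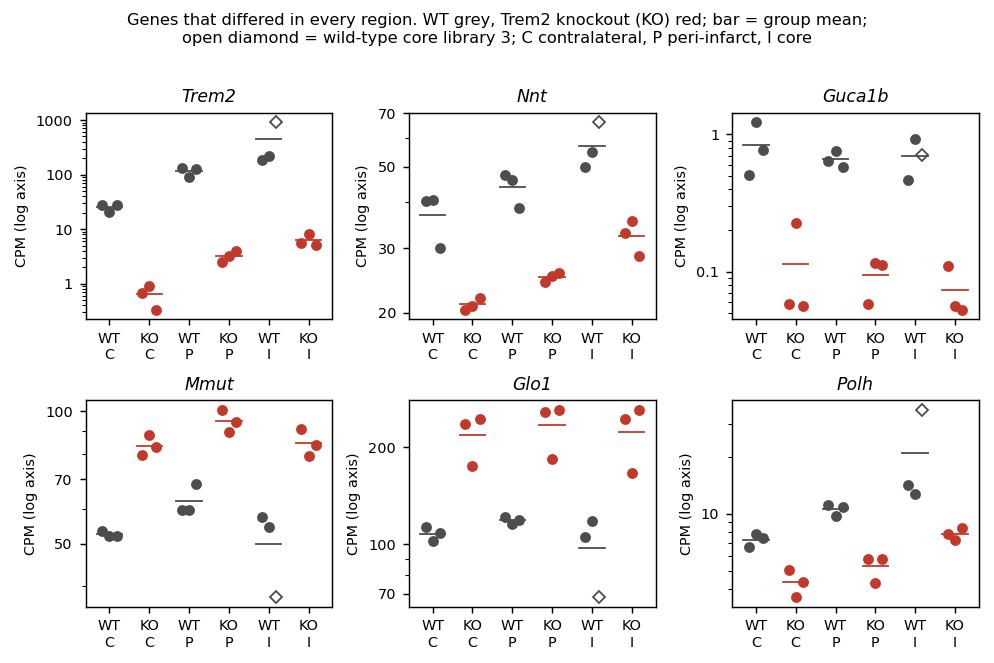
CPM on a log axis in each of the 18 libraries for Trem2, Nnt, Guca1b, Mmut, Glo1 and Polh, by genotype (grey wild type, red knockout) and region (C contralateral, P peri-infarct, I core), with group means as bars. In each panel the knockout libraries lie on 1 side of the wild-type libraries of their region, and knockout library 2 is the lowest of its group for Glo1 in each region.

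Genes on chromosome 17, which carries Trem2, made up 21 of the 35 calls with 18 libraries (60%), Trem2 included. That is 21 of 744 tested genes on the chromosome (2.82%) against 14 of 14507 on all others (0.0965%). Among the 60 genes on either side of Trem2, 7 of 104 passed (6.73%), 1 higher and 6 lower. With 17 libraries the chromosome's share was closer to that of the rest, 80 of 749 (10.7%) against 1060 of 14603 (7.26%), and 16 of the 105 nearest genes passed (15.2%), 4 higher and 12 lower. Whether the position on the chromosome has a part in these differences was not tested, and the strain of origin of the knockout allele was not known here.

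The metabolic genes Mmut and Glo1 were among the rises on this chromosome. Mmut levels were 53.5, 52.1 and 52 CPM in wild-type and 79.4, 88.1 and 82.7 in knockout contralateral libraries, 59.5, 59.7 and 68.1 and 101, 89.5 and 94.6 in the peri-infarct libraries, and 57.6, 54.7 and 37.8 and 91.1, 79 and 83.8 in the core libraries. Mmut encodes methylmalonyl-CoA mutase, a mitochondrial enzyme of propionate breakdown. All 9 knockout libraries were above the 9 wild-type libraries, regardless of region, and Mmut rose by 0.68 ± 0.07 (adjusted p = 0.00108). It lies 97 genes before Trem2 in gene order. Glo1, the glyoxalase that removes the glycation agent methylglyoxal, lies 341 genes before Trem2. Glo1 stood at 113, 102 and 108 CPM in the wild type and 236, 174 and 245 in the knockout contralaterally, in the peri-infarct tissue at 122, 115 and 119 and 257, 184 and 262, and in the core at 105, 118 and 68.3 and 245, 166 and 260.4. Again the genotypes did not overlap, and within the knockout the library numbered 2 was the lowest in each region. Glo1 rose by 1.07 ± 0.13 (adjusted p = 0.00147). Of the 14 tested genes of methylglyoxal and aldehyde detoxification only Glo1 passed with 18 libraries (background 0.0913% higher). With 17 libraries Aldh9a1, an aldehyde dehydrogenase (0.23 ± 0.06), joined it (background 2.26% higher).

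Closer to Trem2, most called genes were lower in the knockout. Wild-type libraries 1 to 3 held 6.67, 7.86 and 7.40 CPM of Polh contralaterally, 11.1, 9.73 and 10.9 in the peri-infarct tissue and 14.2, 12.8 and 35.7 in the core. The knockout libraries held 5.06, 3.61 and 4.33, then 5.76, 4.29 and 5.76, then 7.86, 7.24 and 8.41. Polh, a DNA polymerase that bypasses ultraviolet damage, was thus lower in each knockout library than in any wild-type library of the same region, at -1.06 ± 0.18 (adjusted p = 0.0246), and lies 58 genes before Trem2. Pot1b, a telomere protection gene 28 genes after Trem2, fell by 0.69 ± 0.09 (adjusted p = 0.00303), from 8.02 to 11.3 CPM over the wild-type libraries to 4.16 to 6.82 over the knockout. Tbc1d5, Cnpy3 and Dpp9, at 14, 33 and 49 genes' distance, fell by 0.37 ± 0.05, 0.35 ± 0.06 and 0.33 ± 0.05. Vegfa, the vascular growth factor, 63 genes before Trem2, fell by 0.48 ± 0.06. Khsrp, an RNA-binding regulator of messenger decay 79 genes away, fell by 0.60 ± 0.09. Mrps10, a mitochondrial ribosome subunit 24 genes away, was the exception and rose by 0.47 ± 0.08 (adjusted p = 0.0331).

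Guca1b, a calcium-sensing activator of guanylate cyclase 23 genes before Trem2, was counted at 8 to 21 reads per wild-type library and 1 to 4 per knockout library. Pooled over 9 libraries each, this was a ratio of 0.128 of knockout to wild type (exact 95% interval 0.0694 to 0.221, counting error only). The fitted difference was -2.88 ± 0.30 (adjusted p = 0.000897). With 17 libraries Mdfi (-1.01 ± 0.23), Lrrc73 (-0.52 ± 0.08), Nfya (-0.34 ± 0.07), Ttbk1 (-0.33 ± 0.06), Tomm6 (-0.22 ± 0.05) and Cul9 (-0.18 ± 0.04) were also lower among the nearest genes. In the same fit Mrpl2 (0.29 ± 0.06), Abcc10 (0.27 ± 0.08) and Plin3 (0.26 ± 0.06) were higher.

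**Figure D2:**
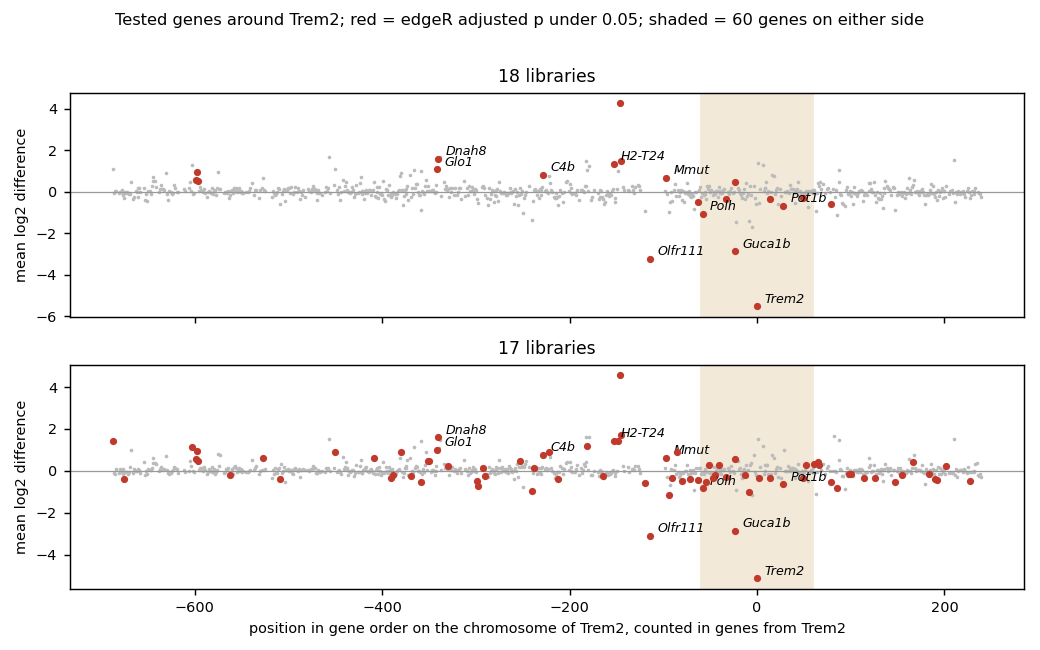
Mean log2 difference of tested genes around Trem2 against place in gene order, counted in genes from Trem2, with 18 libraries above and 17 below. Red points are called genes, of which the chromosome held 21 with 18 libraries and 80 with 17. Trem2, Olfr111 and Guca1b lie far below the line in both.

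The remaining 14 calls with 18 libraries lay on other chromosomes. Besides Nnt they included a group of genes of activated microglia and macrophages, all lower: Mmp12 (-4.68 ± 0.67), a macrophage elastase, Spp1 (-2.23 ± 0.39), which encodes osteopontin, Ch25h (-2.04 ± 0.35), which makes 25-hydroxycholesterol, Clec7a (-1.90 ± 0.30), which encodes the glucan receptor dectin-1, Lpl (-1.53 ± 0.27), lipoprotein lipase, and Cst7 (-1.30 ± 0.24), a lysosomal protease inhibitor. The others were Plekha4 (0.89 ± 0.14), Acss3, a mitochondrial acyl-CoA synthetase (0.94 ± 0.16), and Fat3, a cadherin (-0.49 ± 0.08), and 4 genes outside the naming rule, named after their values were seen: Lilra5 (-1.12 ± 0.20), Dipk2a, Slc7a1 and Tnni3 (1.33 ± 0.25).

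Of 25 disease-associated microglia genes, 5 were lower with 18 libraries (background 0.137% lower) and 15 with 17 (background 5.2% lower). In either fit 0 were higher. With 18 libraries the count of 5 was 0 or 1 without any single contralateral library, any single knockout library or wild-type peri-infarct 1, and 2 without wild-type peri-infarct 3. With 17 it was 13 to 18 when 1 library was left out, and fewer without the 4 libraries high in choroid plexus markers. It was 1 from 3 against 3 averages over the contralateral and peri-infarct tissue. From 3 against 3 averages over the 3 regions with 18 libraries it was 0. A single gene was higher, without wild-type contralateral 1. The median of the list was -0.93 with 18 libraries and -0.59 with 17. With 17 libraries, 22 of 25 lay below 0 against 48.8% of all genes. Clec7a levels were 15.4, 8.15 and 15.6 CPM in wild-type and 2.47, 2.93 and 1.46 in knockout contralateral libraries, 93.1, 55.2 and 83 and 19.6, 28.1 and 32.2 in the peri-infarct libraries, and 129, 113 and 534 and 72.8, 105 and 69.3 in the core libraries. In each region the knockout libraries stayed below the wild-type libraries, most clearly on the contralateral side. Spp1 and Ch25h also separated the genotypes in the 3 regions, and these were the 3 of 25 that did (background 0.522% of genes lower without overlap).

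Lpl differed from Clec7a in where its fall lay. Lpl stood at 22.8, 28.9 and 20.6 CPM in the wild type and 21.5, 17.6 and 19.2 in the knockout contralaterally, in the peri-infarct tissue at 217, 115 and 133 and 35.2, 47.5 and 41.7, and in the core at 237, 280.1 and 1135 and 121, 122 and 78.1. On the contralateral side, where Lpl was low, the genotypes overlapped, while in the peri-infarct tissue and the core they did not. The log2 differences with 17 libraries were -0.29, -1.92 and -1.25 in the 3 regions in that order. For Clec7a they were -2.48, -1.55 and -0.53, and for Cst7 -1.91, -1.00 and -0.26. Wild-type libraries 1 to 3 held 5.31, 3.23 and 3.58 CPM of Cst7 contralaterally, 15.2, 15.3 and 28.3 in the peri-infarct tissue and 24.9, 28.4 and 79.2 in the core. The knockout libraries held 0.921, 1.30 and 0.955, then 9.67, 10.9 and 9.25, then 27.7, 21.3 and 17. The genotypes did not overlap for Cst7 on the contralateral side and in the peri-infarct tissue, but did in the core. The test of unequal differences called none of these 3 genes. The list's median by region was -0.67 contralateral, -0.83 peri-infarct and -0.21 in the core.

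Larger falls with 17 libraries included the scavenger receptors Cd36 (-2.08 ± 0.46) and Msr1 (-1.49 ± 0.32), the chemokine Ccl4 (-1.89 ± 0.32), the glycoprotein Gpnmb (-1.42 ± 0.31), the proton pump subunit Atp6v0d2 (-1.56 ± 0.35) and the immune receptors Lilr4b (-1.66 ± 0.45) and Cd300lb (-1.50 ± 0.42). Not every gene of the state moved. Apoe, the lipoprotein of activated microglia and astrocytes, stood at -0.02 ± 0.10, Fabp5, a fatty acid carrier, at 0.05 ± 0.08 and Axl, a phagocytic receptor, at 0.18 ± 0.08, none of them called. In bulk tissue, fewer cells of a type and less RNA per cell cannot be told apart. The 16 homeostatic microglia markers, Trem2 among them, summed to 2590 to 3110 CPM in wild-type and 1883 to 2176 in knockout peri-infarct tissue, and to 910 to 1004 against 723 to 897 contralaterally. In the core they summed to 4147 and 4437, or 13441 in library 3, against 2897 to 4379. Markers of infiltrating and border macrophages summed to 441 to 1016 CPM in wild-type and 233 to 365 in knockout peri-infarct tissue. Contralaterally the sums overlapped, at 83.3 to 140 in the wild type and 50.3 to 91.2 in the knockout. They also overlapped in the core, at 1155 and 1658, or 7071 in library 3, against 1119 to 1579. The part of these cell types in the falls was not tested.

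Of the homeostatic microglia genes, 4 of 16 passed with 17 libraries, all lower (background 5.2%), among them the targeted gene Trem2 itself, Fcrls and Olfml3, and Trem2 alone passed with 18. P2ry12, the purinergic receptor of resting microglia, was at 0.21 ± 0.10, Tmem119 at -0.16 ± 0.07 and Cx3cr1, the fractalkine receptor, at -0.17 ± 0.11, none of them called. The list's median was -0.13. Of 17 genes of the receptor's own complex and signalling chain, Trem2 and Tyrobp (-0.52 ± 0.11) were lower with 17 libraries (background 5.2%). Tyrobp did not pass with 18 (-0.90 ± 0.26, adjusted p = 0.193), and the kinase Syk was at -0.16 ± 0.12. Trem2 was the single call among 5 tested receptors of its family. Of 16 macrophage markers, Plac8 was higher (0.97 ± 0.28, background 2.26%) and Cd36 and Msr1 lower (background 5.2%) with 17 libraries, and 0 passed with 18.

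**Figure D3:**
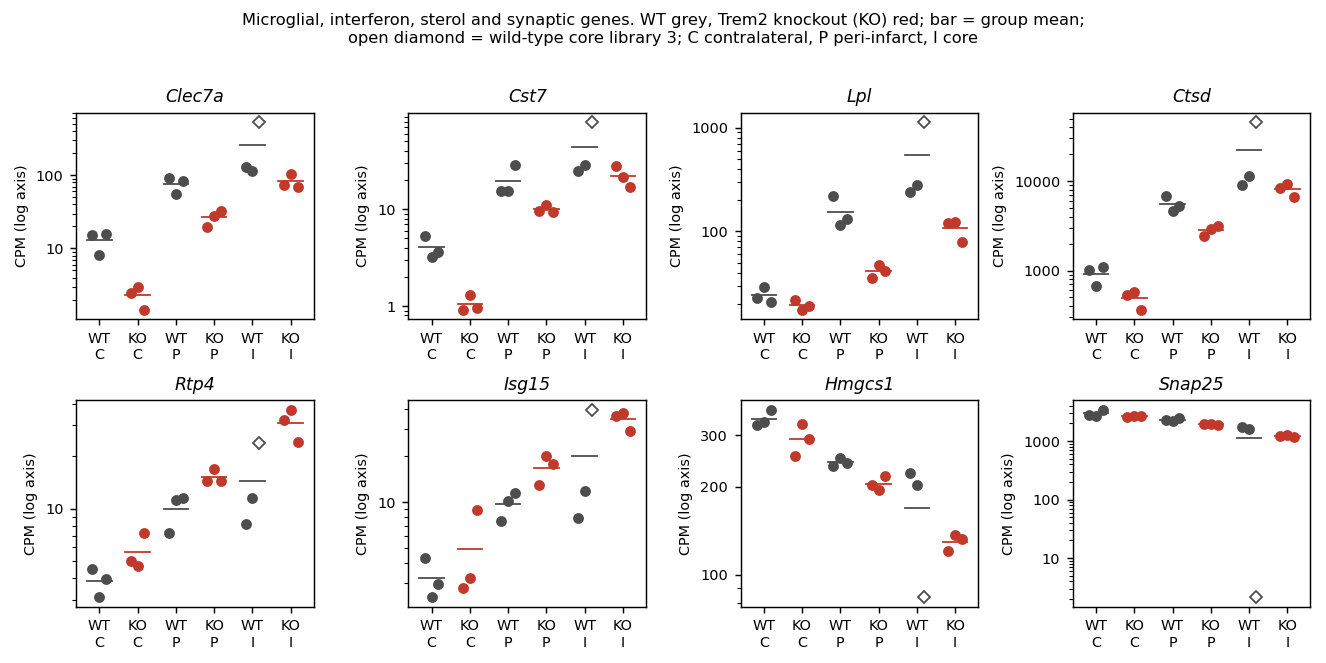
CPM on a log axis in each library for Clec7a, Cst7, Lpl and Ctsd (microglial), Rtp4 and Isg15 (interferon), Hmgcs1 (sterol) and Snap25 (synaptic), by genotype and region, with group means as bars. The open diamond of wild-type core library 3 lies above the other wild-type core libraries in the microglial and interferon panels and below them for Hmgcs1 and Snap25.

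Genes of the lysosome and of phagocytosis fell in part. With 17 libraries 8 of 24 were lower (background 5.2%) and 0 higher, with a median of -0.23, and with 18 libraries 0 passed (median -0.48). Ctsd, the aspartic protease cathepsin D, was at -0.72 ± 0.13 (adjusted p = 0.00682) and Ctsz, another cathepsin, at -0.54 ± 0.10. On the contralateral side Ctsd stood at 1006, 674 and 1081 CPM in the wild type and 538, 575 and 366 in the knockout, and in the peri-infarct tissue at 6886, 4619 and 5336 and 2457, 2952 and 3177. The genotypes did not overlap in these 2 tissues. Cd68 (-0.73 ± 0.16), Gusb (-0.53 ± 0.11) and Grn (-0.39 ± 0.10) passed as well, while Lamp1, Npc1, Psap and Tfeb lay between -0.01 and 0.04 and did not. Among 20 genes of lipid uptake, storage and efflux, 6 were lower with 17 libraries (background 5.2%: Lpl, Ch25h, Cd36, Msr1, Plin2 and Fabp4). Plin3, a lipid droplet coat gene of the chromosome of Trem2, was higher (background 2.26%). Without wild-type contralateral 3, 2 of these 20 were lower, and the call of Plin3 was lost without knockout peri-infarct 3 or wild-type core 1. With the core left out, 11 disease-associated, 6 lysosomal and 3 lipid genes were lower, against 125 of all 15075 tested genes. Without the 4 libraries high in choroid plexus markers fewer were lower, while the medians were -0.62, -0.25 and -0.16.

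Complement genes moved in both directions. C4b, a classical pathway component that lies 228 genes before Trem2, was higher with 18 libraries (0.81 ± 0.12, adjusted p = 0.0136). C4b levels were 104, 76.2 and 92.2 CPM in wild-type and 109, 99.4 and 109.6 in knockout contralateral libraries, 142, 199.5 and 216 and 452, 377 and 329.8 in the peri-infarct libraries, and 200.3, 212 and 121 and 438, 375 and 383 in the core libraries. Wild-type and knockout did not overlap in the peri-infarct tissue and the core but did on the contralateral side. Cfb, the alternative pathway factor B, 222 genes before Trem2, was higher with 17 libraries (0.92 ± 0.20). The C1q chains C1qa, C1qb and C1qc (-0.40 ± 0.10, -0.33 ± 0.09 and -0.40 ± 0.10) and the integrin chain Itgb2 (-0.50 ± 0.12) were lower with 17. In total, 2 of 15 were higher (background 2.26%) and 4 lower (background 5.2%). With 18 libraries 1 was higher (background 0.0913%) and 0 lower (background 0.137%). The 4 lower calls became 0 without wild-type contralateral 3 or wild-type core 2, 1 without knockout contralateral 3 and 2 without knockout peri-infarct 3.

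Interferon-stimulated genes were higher in the knockout once wild-type core library 3 was left out. With 17 libraries, 13 of 18 passed, all upward (background 2.26%), and the other 5 also lay above 0, with a median of 0.71. With 18 libraries 0 of 18 passed and the median was 0.59. Wild-type libraries 1 to 3 held 4.52, 3.11 and 3.94 CPM of Rtp4 contralaterally, 7.23, 11.2 and 11.5 in the peri-infarct tissue and 8.19, 11.6 and 23.7 in the core. The knockout libraries held 5.01, 4.68 and 7.25, then 14.4, 16.8 and 14.4, then 32.4, 36.9 and 24.1. Rtp4, an interferon-induced chaperone, was the 1 listed gene whose genotypes did not overlap in any region (background 0.176% of genes), and rose by 0.95 ± 0.14 (adjusted p = 0.00241). Isg15 levels were 4.35, 2.41 and 2.94 CPM in wild-type and 2.76, 3.21 and 8.82 in knockout contralateral libraries, 7.52, 10.1 and 11.4 and 12.8, 19.8 and 17.6 in the peri-infarct libraries, and 7.84, 11.8 and 39.7 and 36.2, 38.1 and 28.8 in the core libraries. For Isg15, a ubiquitin-like modifier, the separation held in the peri-infarct tissue. On the contralateral side 1 knockout library was high, and in the core library 3 was the highest of all. Its mean difference was 1.08 ± 0.22 (adjusted p = 0.0125). Irf7 (1.16 ± 0.23), a transcription factor of the interferon response, Oasl2 (1.08 ± 0.19), Usp18 (1.02 ± 0.18), Ifi44 (1.05 ± 0.24), Ifit3 (1.01 ± 0.21) and Ifit1 (0.90 ± 0.21) rose by similar amounts.

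The interferon medians by region were 0.41 contralateral, 0.62 peri-infarct and 1.46 in the core, so the core, with 2 wild-type libraries left, gave the largest share of the mean. With the core left out of the fit 0 of 18 passed and the median was 0.52. Without the 4 libraries high in choroid plexus markers fewer than 13 passed, with a median of 0.73. Leaving out 1 library at a time gave 11 to 18 calls. Library 3 of the wild-type core, which removes these calls when it is kept, was high for most of them, at 39.7 CPM of Isg15 and 23.7 of Rtp4. Neutrophil markers moved in the same direction in the core, with summed levels of 70.1 and 71.5 CPM in the wild type (234 in library 3) and 101 to 188 in the knockout, where Ly6g and Elane, at 0 in the wild type, had counts. Their part in the result was not tested.

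The start regions of this group were read because its members moved together. An interferon-stimulated response element was searched as the letters GAAANNGAAA on either strand in the 250 bases before each RefSeq start (GRCm38.p6), with overlapping matches allowed. Of the 18 listed genes 14 had a promoter in the table, and 8 of these (57.1%) held a match. Of the 10 called members with a promoter 4 (40%) held one. The other matches lay in Oas1a, Rsad2, Bst2 and Cxcl10, which were not called. Of 12209 tested genes with a promoter 3.25% did, of 271 called higher 10.3%, and of 606 called lower 2.81%. Shown are the stretches around the match nearest the start for the 4 called members that had one: Stat2 at chr10:128270248-128270315 (plus strand), Isg15 at chr4:156200845-156200914 (minus strand), Ifit3 at chr19:34583373-34583446 (plus) and Ifit1 at chr19:34640774-34640843 (plus). They are written 5′ to 3′ on the strand of the gene, and capitals mark the letters of a match or its reverse complement.
Stat2: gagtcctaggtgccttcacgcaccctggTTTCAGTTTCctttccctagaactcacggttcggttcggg
Isg15: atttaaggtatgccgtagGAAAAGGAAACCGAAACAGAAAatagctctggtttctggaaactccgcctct
Ifit3: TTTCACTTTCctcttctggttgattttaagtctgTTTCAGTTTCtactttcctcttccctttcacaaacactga
Ifit1: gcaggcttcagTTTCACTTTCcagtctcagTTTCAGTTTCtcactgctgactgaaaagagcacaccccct
The nearest match began 66 bases before the start in Isg15, 85 in Ifit1, 122 in Ifit3 and 222 in Stat2. In Isg15 3 overlapping matches run into each other, and Ifit1 and Ifit3 have 2 each. Irf7, Oasl2, Ifit2, Ifi44, Ifitm3 and Xaf1 were called and held no match in this window.

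Class I histocompatibility genes, of which 14 of 16 tested lie on the chromosome of Trem2, gave 3 higher (background 2.26%) and 1 lower (background 5.2%) with 17 libraries, where 10.7% of the genes on that chromosome passed in either direction. H2-T24, a non-classical class I gene 153 genes before Trem2, was also higher with 18 (1.33 ± 0.15, adjusted p = 0.00122). H2-T24 stood at 6.38, 5.04 and 5.76 CPM in the wild type and 4.95, 7.22 and 8.04 in the knockout contralaterally, in the peri-infarct tissue at 7.58, 8.74 and 8.63 and 22.3, 25.8 and 21.8, and in the core at 7.61, 8.78 and 13.6 and 50.8, 63.2 and 31.4. Its groups overlapped on the contralateral side and were far apart in the peri-infarct tissue and the core. H2-Q6 (1.20 ± 0.21) and the peptide transporter Tap1 (0.45 ± 0.11) were higher with 17 libraries, H2-M3 was lower (-0.59 ± 0.14), and the classical genes H2-K1 (0.22 ± 0.14) and H2-D1 (0.30 ± 0.15) and B2m, their light chain (0.10 ± 0.12), did not pass. Reads of these near-identical genes can be assigned to a relative, so the values of H2-T24, H2-Q6 and H2-Q9 (1.43 ± 0.32) are uncertain. Other rises of the same kind were the guanylate-binding gene Gbp10 (1.30 ± 0.26), Ifi213 (1.35 ± 0.34), Oas3 (1.35 ± 0.34) and Gbp2 (0.67 ± 0.11), an interferon-induced gene also listed for reactive astrocytes.

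Genes of cholesterol synthesis were slightly lower. With 17 libraries 10 of 21 passed, all downward (background 5.2%), with a median of -0.19, and 19 of 21 lay below 0 against 48.8% of all genes. With 18 libraries 0 passed and the median was -0.12. Wild-type libraries 1 to 3 held 325, 332 and 367 CPM of Hmgcs1 contralaterally, 235, 252 and 241 in the peri-infarct tissue and 223, 203 and 83.8 in the core. The knockout libraries held 256, 328 and 292, then 203, 195 and 218, then 120.2, 137 and 132. Hmgcs1, the synthase at the head of the pathway, was lower in each knockout core and peri-infarct library than in any wild-type library there, save for the wild-type core library 3 at 83.8 CPM, and the contralateral groups overlapped. Its difference was -0.38 ± 0.05 (adjusted p = 0.00238). Msmo1, a methylsterol oxidase, was at -0.32 ± 0.05 and Srebf2, the pathway's transcription factor, at -0.28 ± 0.05. Mvk (0.07 ± 0.11), Lss (-0.01 ± 0.05) and Fdps (-0.07 ± 0.07) did not pass. The median by region was -0.05, -0.08 and -0.40, and with the core left out 0 of 21 passed. Without wild-type contralateral 3 the count was 6, and without the 4 libraries high in choroid plexus markers it also fell.

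Synaptic genes were likewise lowest in the core. With 17 libraries 9 of 20 were lower (background 5.2%) and 0 higher, with a median of -0.24, and regional medians of -0.13, -0.11 and -0.49, while with 18 libraries 0 passed and the median was -0.05. Snap25 levels were 2743, 2724 and 3424 CPM in wild-type and 2569, 2719.8 and 2650.0 in knockout contralateral libraries, 2266, 2159 and 2467 and 1939, 1965 and 1882 in the peri-infarct libraries, and 1753, 1576 and 2.14 and 1222, 1275 and 1190.0 in the core libraries. Snap25, a component of the vesicle fusion machinery, was at -0.27 ± 0.05 (adjusted p = 0.00983) and was lower in each knockout library than in any wild-type library of its region, library 3 of the core apart. Syt1, the calcium sensor of release (-0.33 ± 0.07), Homer1, a postsynaptic scaffold (-0.53 ± 0.13), and the receptor subunits Grin2b (-0.48 ± 0.13) and Grin1 (-0.24 ± 0.06) were also lower. Markers of excitatory neurons went the same way in the core: they summed to 5145 and 5419 CPM in the wild type (68.8 in library 3) and to 2709 to 3808 in the knockout. Contralaterally the sums overlapped, at 4989 to 6743 and 5615 to 6297. Of 15 such markers 2 were lower with 17 libraries (background 5.2%) and 0 passed with 18. The 2 were the vesicular glutamate transporter Slc17a7 (-0.36 ± 0.10) and the transcription factor Neurod6 (-0.56 ± 0.16). The share of the synaptic differences that goes with neuron content was not tested. The count of 9 became 15 without wild-type contralateral 1, 3 without wild-type contralateral 3 and 4 without knockout peri-infarct 3. It was 5 without knockout contralateral 3 or wild-type peri-infarct 2, and 0 without the core. It also fell without the 4 libraries high in choroid plexus markers.

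Cell cycle genes all lay below 0 with 17 libraries, 18 of 18 against 48.8% of all genes, with a median of -0.41, and 6 passed, all lower (background 5.2%, and 3 of 18 did not overlap in any region against 0.522% of genes): Mki67, the proliferation marker (-0.72 ± 0.17), Top2a, Aurkb (-0.58 ± 0.15), Ccnb2, Cdk1 and Bub1b. With 18 libraries 0 passed and the median was -0.71. Mki67 stood at 4.80, 9.85 and 8.69 CPM in the wild type and 4.03, 5.98 and 4.61 in the knockout contralaterally, in the peri-infarct tissue at 84, 39.4 and 43 and 22.3, 24.8 and 34.3, and in the core at 105, 111 and 369 and 76.4, 76.1 and 77.4. For Mki67 the genotypes did not overlap in the peri-infarct tissue and the core, but did contralaterally, where the gene was low. The count of 6 became 0 without wild-type contralateral 3, and 1 without knockout contralateral 1 or 3 or wild-type core 2. It was 2 without wild-type contralateral 2, knockout peri-infarct 2 or knockout core 3, and 3 without knockout contralateral 2. By limma-voom or with the core left out it was 0. It also fell without the 4 libraries high in choroid plexus markers.

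**Figure D4:**
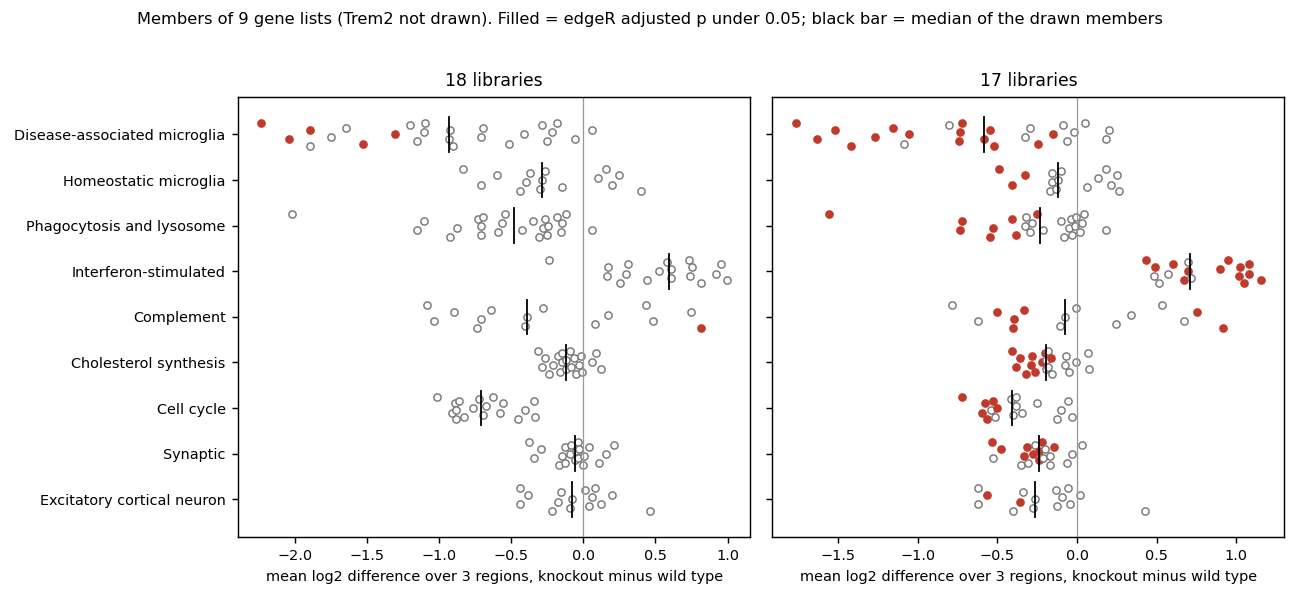
Mean log2 difference of each member of 9 lists (Trem2 not drawn) with 18 libraries (left) and 17 (right), filled where the edgeR adjusted p was under 0.05, with black bars at the medians of the drawn members. With 17 libraries the filled points are all to the left for the microglial, lysosomal, sterol, cell cycle and synaptic lists and all to the right for the interferon list.

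**Figure D5:**
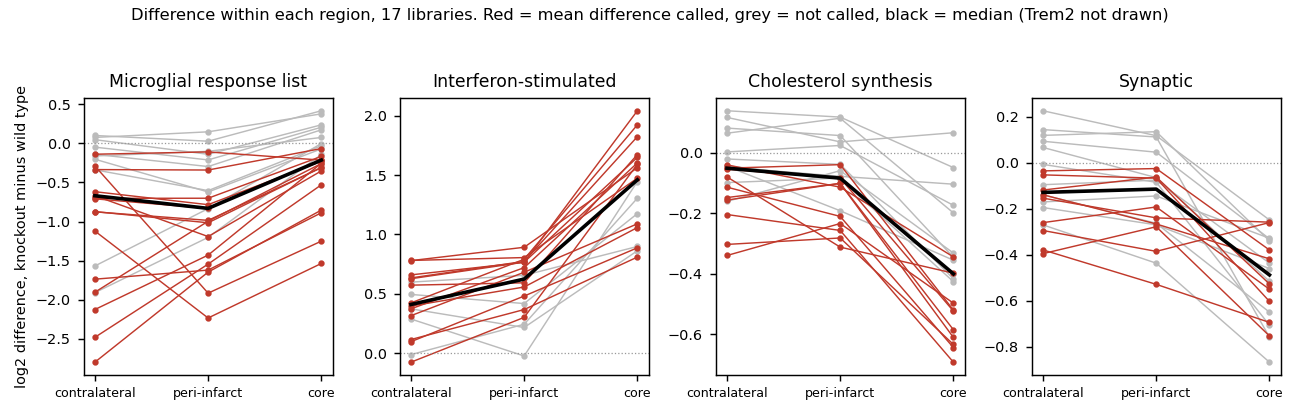
Log2 difference within each region with 17 libraries for the members of 4 lists, with a line per gene (red where the mean over regions was called) and the median in black. The microglial list lies lowest outside the core, while the interferon list is highest and the sterol and synaptic lists are lowest in the core.

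Activity-regulated and clock genes were smaller sets. With 17 libraries Fos and Dusp1 (0.60 ± 0.15) were higher and Arc, Egr1, Npas4 and Egr3 (-0.58 ± 0.12) lower among 14 immediate early genes (background 2.26% higher and 5.2% lower), and 0 passed with 18. The 4 lower calls became 1 or 2 without wild-type contralateral 2 or 3, knockout contralateral 1, wild-type or knockout peri-infarct 2, wild-type core 1, or knockout core 1 or 3. The 2 higher calls remained 2 in number only without knockout contralateral 2, wild-type peri-infarct 3, knockout peri-infarct 2, wild-type core 1 or knockout core 3, and were 0 or 1 otherwise. With the core left out neither direction gave a call. Of 16 clock genes, Per2 (-0.48 ± 0.10) and Bhlhe40 (-0.43 ± 0.09) were lower with 17 libraries (background 5.2%) and 0 passed with 18. Npy, a neuropeptide of interneurons, was at -0.50 ± 0.13, and Cspg4, a proteoglycan of oligodendrocyte precursors and pericytes, at -0.60 ± 0.11. Of 20 tested genes in the NADPH and glutathione list, the quinone reductase Nqo1 (0.54 ± 0.10), Prdx3 and Idh2 were higher with 17 libraries (background 2.26%). Nnt alone was lower (background 5.2%), and it was the only one to pass with 18. Sox9, an astrocyte transcription factor, was at 0.31 ± 0.08.

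The largest rises with 17 libraries that lay off the chromosome of Trem2 followed different libraries. Wild-type libraries 1 to 3 held 1.58, 1.06 and 1.17 CPM of Cldn1 contralaterally, 0.816, 0.869 and 0.806 in the peri-infarct tissue and 1.10, 0.402 and 2.20 in the core. The knockout libraries held 1.50, 10.5 and 1.63, then 4.32, 1.57 and 9.92, then 1.44, 2.17 and 1.00. Cldn1, a tight junction protein, was high in knockout contralateral 2 and knockout peri-infarct 1 and 3, 3 of the 4 libraries that were high in choroid plexus markers (wild-type contralateral 2 was the fourth), while the genotypes overlapped contralaterally and in the core. Its mean difference of 1.85 ± 0.48 was 0.71 without the 4 libraries high in those markers. Col8a2, a collagen chain, went from 1.54 ± 0.40 to 0.88 and Lbp, which binds bacterial lipopolysaccharide, from 1.30 ± 0.30 to 0.75. Apold1 levels were 5.09, 10.9 and 7.05 CPM in wild-type and 25.8, 22.3 and 13.6 in knockout contralateral libraries, 4.14, 7.99 and 8.00 and 28.5, 16.5 and 13.6 in the peri-infarct libraries, and 5.17, 9.30 and 3.18 and 28.2, 12.1 and 8.35 in the core libraries. Apold1, an endothelial early response gene, separated the genotypes on the contralateral side and in the peri-infarct tissue. Its mean difference was 1.38 ± 0.29, and 1.39 without the 4 libraries high in choroid plexus markers. Il1b stood at 0.396, 0.704 and 0.470 CPM in the wild type and 0.460, 0.564 and 0.731 in the knockout contralaterally, in the peri-infarct tissue at 0.291, 0.290 and 0.633 and 0.633, 0.754 and 1.66, and in the core at 0.581, 2.18 and 5.71 and 10.4, 12 and 8.35. Il1b, the cytokine interleukin 1 beta, was under 2 CPM outside the core and rose by 1.47 ± 0.30, a mean to which the core gave 2.91 and the contralateral side 0.19. The neuropeptide Nts was at 1.50 ± 0.39.

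Many lists gave no call. With 17 libraries 0 members passed among resting astrocyte, myelin, endothelial, pericyte, fibrotic scar, striatal, hippocampal and thalamic, choroid plexus, ependymal, red blood cell, neutrophil, T and NK cell, B cell, class II, respiratory chain and heat shock genes. Some of these had medians far from 0, namely choroid plexus at 2.00, red blood cells at 1.08 and striatal neurons at 0.78, each with all tested members above 0 (11, 4 and 9). Striatal markers summed to 619 to 772 CPM in knockout peri-infarct tissue and to 168, 216 and 822 in the wild type. The groups overlapped there, although the mean difference of each member was upward.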

How the data were processed

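The labels describe polyadenylated RNA made into libraries with an MGIEasy stLFR kit. Per the submitters' processing notes, HISAT2 2.0.4, Bowtie2 and Subread and the build GRCm39 (mm39) were used. Their roles, and whether reads were counted by strand, are not given in the sources used here, so overlapping genes cannot be told apart. The authors deposited estimated counts per gene (18922 genes, of which 3678 or 19.4% had a value that was not whole, rounded here) and TPM values, used as an alternative.

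Counts were filtered with filterByExpr, scaled by TMM and fitted with edgeR 4.0.16 (R 4.3.3) as 1 mean per group, with 12 residual degrees of freedom for 18 libraries and 11 for 17. The contrast was the mean of the 3 knockout minus wild-type differences, tested by quasi-likelihood with Benjamini-Hochberg adjustment over all tested genes at 0.05. SE is the log2 difference divided by the root of F. A second test asked whether the 3 differences were unequal. limma 3.58.1, with a pseudocount of 1 or 0.1 for TPM, DESeq2 1.42.0, other scalings and filters, a replicate block and leaving out libraries were alternatives. Fits were tested on simulated data.

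Named were Trem2, the 12 largest called rises and falls per fit at a mean log2 CPM of at least 1, 2 called genes of smallest p per list, called genes among the 60 on either side of Trem2, and the 5 smallest p for unequal differences. Other genes are members of the 38 lists, or are named with their values seen. The comparison and lists were chosen with earlier results of these data known. Gene order came from RefSeq's GRCm38.p6, without coordinates, as did the promoters. Some genes are not reported here.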

Additional observations from a re-analysis of the deposited data

Results flagged for a closer look

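In 3 genes the knockout libraries lay wholly above the wild type in 1 region and wholly below it in another. The edgeR test of unequal differences called none of them with 17 libraries or with 18. Aldh1l2 and Osmr were named for their small p in that test with 18 libraries, so the pattern comes with the way they were chosen. How many of all tested genes share it was not counted. Aldh1l2, a mitochondrial folate enzyme, had log2 differences of -0.586 contralaterally, 0.0599 in peri-infarct tissue and 0.0732 in core tissue. Osmr, the oncostatin M receptor, had -0.538, 0.0428 and 0.332 in the same order. Znhit3 had 0.0402, -0.239 and 0.459.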

How the results depend on the processing

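With 18 libraries the count of 35 became 420 by DESeq2, 1683 by limma-voom with quality weights and 54 in an additive model. It was 151 without the core and 1 (Trem2) from 3 against 3 averages over regions. With 17 libraries the count of 1151 became 1901 by DESeq2, 151 without the core, 4 from 3 against 3 averages over the contralateral and peri-infarct tissue, and 61 without the libraries high in choroid plexus markers. Leaving out 1 library gave 13 to 1151 calls from 18 libraries and 524 to 1781 from 17. The test of unequal differences gave 1 call from 18 libraries on log2(TPM + 1), and from 17 libraries 50 by DESeq2, 3 on log2(TPM + 1) and 0 to 1 with 1 library left out. The alternatives without the choroid-rich libraries and with 3 against 3 averages over 2 tissues were chosen after seeing the data. The cause of these shifts was not tested. Other scalings, filters and tools kept both counts within 1.5 times, the permutation result of Trem2 within regions had p = 0.00025 on log2(TPM + 1) and without each library, but 0.1 with replicate numbers permuted whole, and no named gene reversed its sign where it was called.

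Replicate numbers did not pair the samples throughout: deviations of same-numbered libraries of 1 region correlated above 0.1 in 4 of 9 pairs (-0.451 to 0.355) and of 1 genotype in 7 of 18 (-0.277 to 0.436). Between wild-type contralateral and wild-type peri-infarct libraries the same numbers correlated at 0.398, 0.436 and 0.386, each the highest for its own number. With the wild-type core, numbers 2 and 3 were again highest for their own number (0.300 and 0.0521 contralateral, 0.417 and 0.0712 peri-infarct). Number 1 was not (-0.0381 and -0.277). Over all same-genotype pairs the own number was highest in 9 of 18. This is a hint from the data and not the design. With a replicate block 19 genes passed from 18 libraries and 1026 from 17. With the block as a random effect (consensus correlation 0.0421 and 0.0704) 23 and 691 passed. The 5 disease-associated microglia genes lower with 18 libraries were 0 with the block and 1 with it as a random effect, and the 15 with 17 libraries were 14 and 13.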
